A study of Drosophila melanogaster with 6 samples.

Results

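Mitochondrially encoded genes are the genes carried by the small circular genome of the mitochondrion itself. They were taken from the count files as every gene identifier whose FlyBase symbol begins with mt:, which gave 37 of the 17509 genes listed: 13 protein genes, 2 ribosomal RNA genes and 22 transfer RNA genes. RNA sequencing counts came from whole heads of vitamin A deprived flies (3 libraries) and vitamin A replete flies (3 libraries). Both groups were 4-day-old females of Canton S, a wild-type Drosophila melanogaster strain, kept at 25 °C and 50% relative humidity. The deprived flies were raised on minimal food without beta-carotene, the carotenoid that flies turn into vitamin A, and the replete flies on the same food with it. The labels do not say that libraries came from separate sets of flies, and p-values then measure the spread between these libraries alone, which may be technical.

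The mitochondrial genome encodes a few core subunits of the respiratory chain and of ATP synthase, together with the ribosomal and transfer RNAs that are needed to translate them inside the organelle. All other subunits are encoded in the nucleus and imported. Genes lie on both strands, which are transcribed as long precursors, and the precursors are cut apart largely at the transfer RNAs that sit between the other genes. Photoreceptors, neurons and muscle of the fly head are rich in mitochondria. In whole heads, fewer cells of a type and less RNA per cell cannot be told apart.

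The deprived libraries held 21344395 to 24165187 counts and the replete libraries 15668307 to 17935321, so every deprived library was the deeper. The sample codes in the labels run in separate ranges for the 2 diets, and a preparation batch that follows those codes cannot be told apart from diet. The labelled tissue was checked against markers fixed for the head. All 12 photoreceptor markers were detected, with a summed level of 23307 to 26605 CPM (counts scaled to library size) in deprived and 24856 to 26005 CPM in replete libraries, and 7 neuron markers summed to 6103 to 6267 CPM in deprived and 5791 to 6139 CPM in replete libraries. RNA of the germline and egg chambers was also present, with 8 markers summing to 12.6 to 46.8 CPM in deprived and 0.738 to 82.8 CPM in replete libraries. For several mitochondrial transcripts replete library 2 lay far from the other replete libraries, and results that rest on it are given with and without it. Its germline sum was 77.1 CPM, beside 82.8 CPM in replete library 1 and 0.738 CPM in replete library 3.

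Deprived heads had a smaller share of their counts on mitochondrial genes than replete heads. In the group means the ribosomal RNAs carried most of the gap, though not in replete library 2. Mitochondrial genes took 7.41%, 7.21% and 6.86% of all counts in deprived libraries and 8.48%, 8.26% and 8.87% in replete ones. The groups did not overlap, with a mean of 7.16 ± 0.28% in deprived and 8.53 ± 0.308% in replete libraries (SD, n = 3 each; two-sided exact permutation test, p = 0.1, the smallest p that 3 against 3 libraries allow). The 2 ribosomal RNAs took 3.37%, 3.41% and 3.21% of all counts in deprived libraries, against 4.41%, 3.85% and 4.86% in replete libraries, again without overlap (exact permutation p = 0.1). For the 13 protein genes the shares were 4.04%, 3.8% and 3.64% in deprived libraries and 4.06%, 4.41% and 4.0% in replete libraries. Those groups overlapped, since deprived library 1 lay above replete library 3 (exact permutation p = 0.2). The means differed by -1.04 percentage points for the ribosomal RNAs and by -0.33 for the protein genes. Replete library 2 stood at 3.85% and 4.41%, beside deprived means of 3.33% for the ribosomal RNAs and 3.83% for the protein genes. The 22 transfer RNA genes together took only 0.00351%, 0.00276% and 0.00256% of counts in deprived libraries and 0.00318%, 0.00287% and 0.00335% in replete libraries (exact permutation p = 0.7).

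**Figure D1:**
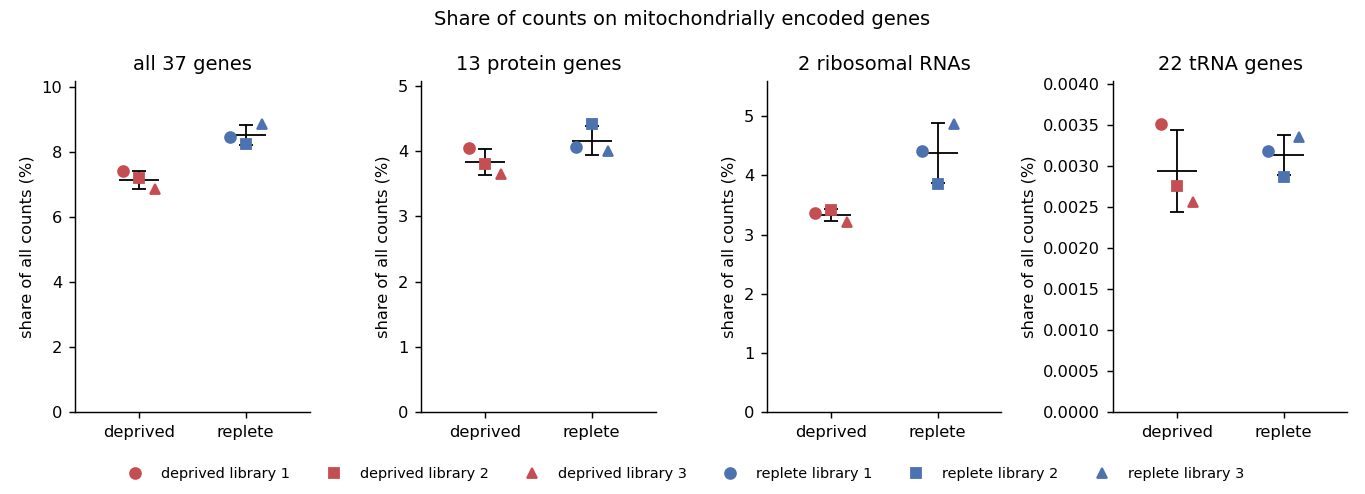
Share of all counts (%, vertical axes from 0) on all mitochondrial genes, the protein genes, the ribosomal RNAs and the transfer RNA genes in each library, with deprived libraries on the left of each panel and replete on the right. Points are libraries and black bars the mean and SD of 3; the groups are apart for all 37 genes and for the ribosomal RNAs, and overlap for the protein and transfer RNA genes.

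Single genes were compared in an edgeR quasi-likelihood fit over all 10896 genes that passed a filter on low counts. All 13 protein genes, both ribosomal RNAs and 11 of the 22 transfer RNA genes were among them, which left 11 transfer RNA genes untested. No mitochondrial gene reached a p under 0.05 after Benjamini-Hochberg (BH) adjustment over all tested genes, where 0.0367% of all tested genes were called lower and 0.294% higher. With DESeq2, which called 0.22% of all tested genes lower and 0.514% higher, mt:ND3 and mt:lrRNA were called lower. With limma-voom, which called 0.0551% lower and 0.22% higher, no member was called, and edgeR without a filter on low counts called mt:ND3 lower. At an unadjusted p under 0.05, 8 of 26 tested members were lower and 0 higher, beside 2.41% of all tested genes lower and 2.72% higher. Every deprived library lay below every replete library for 9 of 26 members, or 34.6%, beside 5.02% of all tested genes, and no tested member lay wholly above, beside 5.86% of all tested genes. Of the 26, 20 had a negative log2 fold change (deprived over replete) and the median was -0.20, against -0.01 over all tested genes, of which 52% were negative. Members are cut from shared precursors and were counted in the same 6 libraries, so they are not independent of each other.

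**Figure D2:**
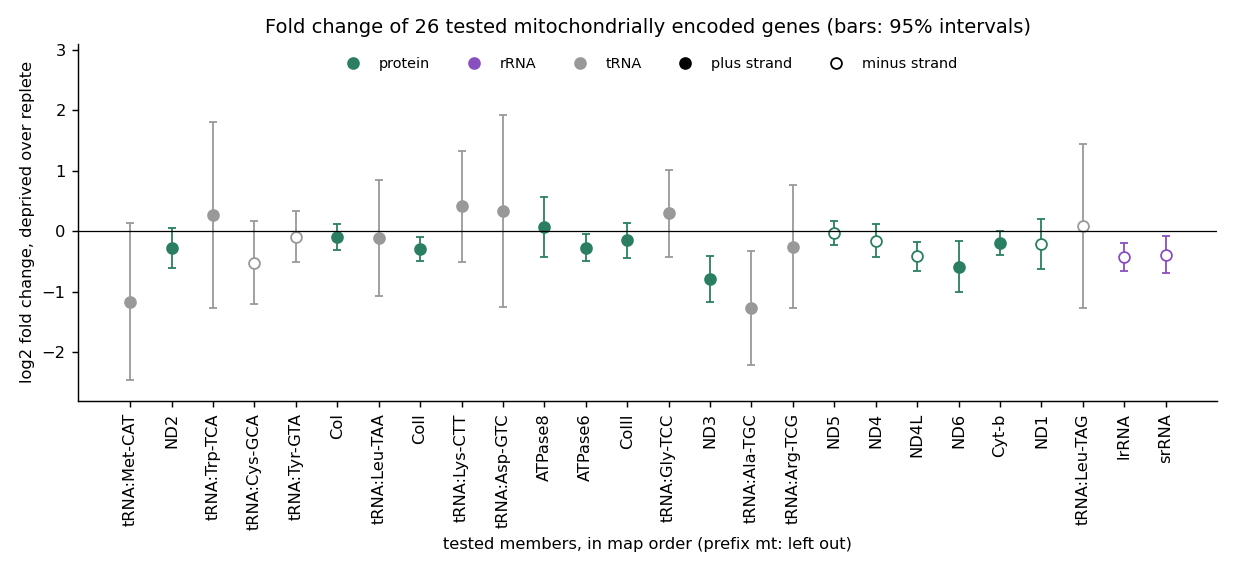
Log2 fold change of deprived over replete heads (vertical axis) for the 26 tested mitochondrial genes in map order, with bars for 95% intervals from the edgeR fit. Filled points are plus-strand and open points minus-strand genes; the lowest values are those of tRNA:Ala-TGC, tRNA:Met-CAT and ND3, and the widest intervals belong to transfer RNA genes.

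Levels per length spanned more than 2 orders of magnitude within this one genome. On the scale of CPM per kilobase of gene, mt:lrRNA was highest at 19348 ± 226 in deprived and 25908 ± 2948 in replete heads (SD, n = 3 each). It was followed by mt:CoIII at 13291 ± 801 in deprived and 14729 ± 2995 in replete heads, mt:srRNA at 9502 ± 798 and 12431 ± 2545, and mt:CoI at 8731 ± 398 and 9275 ± 759, deprived before replete. Among these 4, the replete values of mt:CoIII and mt:srRNA lay within each other's SD. Next came a middle group, from mt:ND1 at 3197 ± 263 CPM per kilobase in deprived and 3700 ± 1049 in replete heads down to mt:ND4 at 1075 ± 94.2 in deprived and 1196 ± 207 in replete heads. A low group of mt:ND4L, mt:ND2, mt:ATPase8, mt:ND3 and mt:ND6 ran from 76.0 to 182 CPM per kilobase in deprived heads and from 130 to 205 in replete heads. Neighbouring genes could sit in different groups: mt:ATPase8 and mt:ATPase6, whose coding sequences overlap by 7 bases on the same transcript, stood at 182 and 2213 CPM per kilobase in deprived heads and at 172 and 2667 in replete heads. Whether reads that touch 2 genes were counted is not given, and such reads weigh most for the shortest genes.

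**Figure D3:**
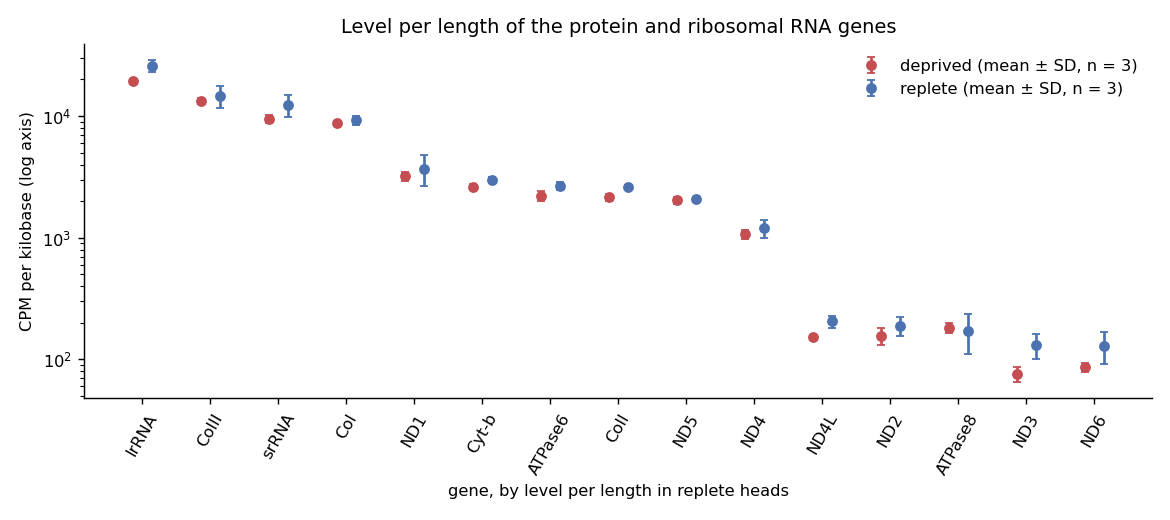
Level per length (CPM per kilobase, log axis) of the 13 protein genes and 2 ribosomal RNAs, ordered by the replete mean, with the deprived value left of the replete value for each gene. Points are means and bars SD of 3 libraries; the genes fall into a high group led by lrRNA, a middle group from ND1 to ND4 and a low group from ND4L to ND6.

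The ribosomal RNAs form the core of the mitochondrial ribosome. The large ribosomal RNA mt:lrRNA (FBgn0013686, mitochondrial genome 12735 to 14058, minus strand) was at 25429, 25962 and 25460 CPM in deprived libraries and at 32980, 31230 and 38695 CPM in replete libraries. Deprived values lay close together and all below the lowest replete value. Its log2 fold change was -0.42 with a standard error of 0.11 (95% interval -0.65 to -0.19), or 0.747 times the replete level, and it was not called (edgeR quasi-likelihood, BH-adjusted p = 0.243). DESeq2 gave a BH-adjusted p of 0.00722 for it, and over 14 alternative settings the adjusted p ran from 0.00722 to 0.883. The small ribosomal RNA mt:srRNA (FBgn0013688, 14131 to 14916, minus strand) was at 8171, 7267 and 6967 CPM in deprived libraries and at 9861, 7727 and 11724 CPM in replete libraries. Replete library 2 fell within the deprived range. Its log2 fold change was -0.39 ± 0.14 (SE; edgeR quasi-likelihood, BH-adjusted p = 0.756), and -0.53 without replete library 2 (BH-adjusted p = 0.0825). Without replete library 3, where it was highest, it was -0.24 (BH-adjusted p = 0.733).

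The 2 ribosomal RNAs are transcribed together, with mt:tRNA:Val-TAC between them. There were 3.11, 3.57 and 3.65 counts of mt:lrRNA per count of mt:srRNA in deprived libraries and 3.34, 4.04 and 3.30 in replete libraries, so the ratio overlapped between diets (exact permutation p = 0.8). Ribosomal RNA counts per mitochondrial protein gene count were 0.833, 0.896 and 0.881 in deprived libraries and 1.08, 0.873 and 1.21 in replete libraries. The groups overlapped through replete library 2 alone (exact permutation p = 0.3, log2 ratio -0.27). Without that library the log2 ratio was -0.40 and the groups were apart (exact permutation p = 0.2, the smallest p that 3 against 2 libraries allow). Without replete library 3 it was -0.16 (exact permutation p = 0.6), and with genes weighted equally, as a difference of mean log2 CPM, it was -0.15 (exact permutation p = 0.4). With all libraries, a larger difference in ribosomal RNA than in protein transcripts was therefore not shown.

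Complex I, the NADH dehydrogenase that feeds electrons into the chain, has 7 subunits encoded here. All 7 had negative log2 fold changes, from -0.79 to -0.02, beside 52% of all tested genes. For 3 of them (mt:ND3, mt:ND4L and mt:ND6) the diets did not overlap, all lower in deprived libraries, beside 5.02% of all tested genes. Of the 35 tested nuclear genes of complex I, 31 were also negative and 5 lay wholly lower. The membrane subunit gene mt:ND3 (FBgn0013681, 5608 to 5961, plus strand) was at 31.4, 23.9 and 25.4 CPM in deprived libraries and at 40.6, 58.9 and 39.8 CPM in replete libraries. It had the largest difference of the protein genes, with a log2 fold change of -0.79 ± 0.17 (SE; 95% interval -1.16 to -0.42), or 0.579 times the replete level (edgeR quasi-likelihood, BH-adjusted p = 0.123). The adjusted p was 0.00328 in DESeq2 and 0.0279 in edgeR without a filter on low counts, and it ran up to 0.640 over the alternatives. Without replete library 2, where it was highest, the log2 fold change was -0.58.

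The subunit gene mt:ND4L (FBgn0013683, 9545 to 9835, minus strand) was at 44.2, 45.5 and 44.8 CPM in deprived libraries, against 52.2, 65.6 and 61.3 CPM in replete libraries. The deprived libraries differed by little more than 1 CPM and all lay lower. Its log2 fold change was -0.41 ± 0.11 (SE; edgeR quasi-likelihood, BH-adjusted p = 0.312). Its neighbour mt:ND4 (FBgn0262952), which overlaps it by 1 base and is read from the same precursor, was at 1581, 1396 and 1340 CPM in deprived and 1604, 1323 and 1877 CPM in replete libraries. Here the groups overlapped, with a log2 fold change of -0.15 ± 0.12 (SE), which was -0.27 without replete library 2, -0.23 without deprived library 1 and -0.025 without replete library 3. mt:ND6 (FBgn0013685), a small membrane subunit, was at 49.4, 41.6 and 45.4 CPM in deprived and at 51.7, 90.7 and 62.2 CPM in replete libraries. Replete library 1 lay just above deprived library 1, and the log2 fold change was -0.59 ± 0.19 (SE; edgeR quasi-likelihood, BH-adjusted p = 0.607) or -0.33 without replete library 2.

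The other 3 complex I genes overlapped between diets. The largest subunit gene, mt:ND5 (FBgn0013684), was at 3664, 3550 and 3244 CPM in deprived and 3489, 3486 and 3654 CPM in replete libraries, with a log2 fold change of -0.02 (95% interval -0.22 to 0.17). For mt:ND2 (FBgn0013680) the levels were 188, 146 and 145 CPM in deprived and 208, 154 and 218 CPM in replete libraries, with a log2 fold change of -0.27 ± 0.15 (SE). Replete library 2 again fell inside the deprived range, and the log2 fold change was -0.41 without it or without deprived library 1, and -0.18 without replete library 3. The gene mt:ND1 (FBgn0013679) was at 3098, 3187 and 2721 CPM in deprived and at 2947, 4610 and 2865 CPM in replete libraries. Its log2 fold change of -0.21 came from replete library 2 and was 0.05 without it.

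Cytochrome b is the only subunit of complex III, the cytochrome bc1 complex, that this genome encodes. Its gene mt:Cyt-b (FBgn0013678, 10499 to 11635, plus strand) was at 3149, 2914 and 2863 CPM in deprived libraries, against 3220, 3611 and 3389 CPM in replete libraries. The groups were apart by a narrow margin, and the log2 fold change was -0.20 ± 0.09 (SE; edgeR quasi-likelihood, BH-adjusted p = 0.976). Among 3 genes for the catalytic core of complex IV, cytochrome c oxidase, only mt:CoII (FBgn0013675, 3083 to 3767, plus strand) did not overlap. It was at 1595, 1387 and 1433 CPM in deprived libraries and at 1732, 1811 and 1843 CPM in replete libraries, a log2 fold change of -0.29 ± 0.09 (SE; edgeR quasi-likelihood, BH-adjusted p = 0.518). Its log2 fold change ran from -0.35 to -0.24 over 14 alternative settings.

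The most abundant protein transcript by counts summed over the 6 libraries, mt:CoI (FBgn0013674), was at 14015, 12792 and 13426 CPM in deprived and at 14191, 13109 and 15438 CPM in replete libraries. With a log2 fold change of -0.09 (95% interval -0.30 to 0.13), the groups overlapped; leaving out 1 library at a time gave -0.14 (without replete library 2) to -0.025 (without replete library 3). mt:CoIII (FBgn0013676) was at 11216, 10129 and 10114 CPM in deprived and at 10268, 14350 and 10246 CPM in replete libraries. Replete library 2 lay well above all others, and in that library mt:CoIII was above mt:CoI. The log2 fold change of mt:CoIII, -0.15, became 0.03 without replete library 2. In ATP synthase, complex V, both encoded subunits belong to the membrane part that passes protons. The gene mt:ATPase6 (FBgn0013672) was at 1661, 1453 and 1368 CPM in deprived libraries, against 1675, 1926 and 1800 CPM in replete libraries. Those groups did not overlap, although deprived library 1 and replete library 1 nearly met, and the log2 fold change was -0.27 ± 0.10 (SE; edgeR quasi-likelihood, BH-adjusted p = 0.801). Its partner mt:ATPase8 (FBgn0013673) was at 32.5, 28 and 27.8 CPM in deprived and at 20.5, 39.4 and 23.9 CPM in replete libraries, with replete libraries on both sides of the deprived ones. It was the only protein gene with a positive log2 fold change, 0.07 ± 0.22 (SE), which became 0.41 without replete library 2 (edgeR quasi-likelihood, BH-adjusted p = 0.585).

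**Figure D4:**
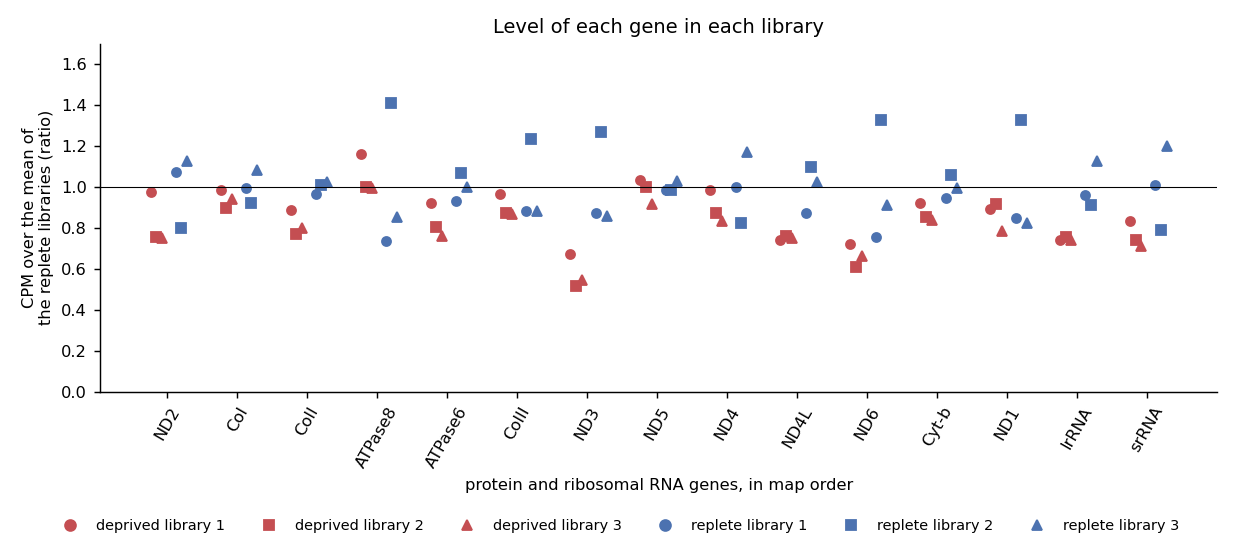
Level of each protein and ribosomal RNA gene in each library as a ratio of its CPM to the mean CPM of the 3 replete libraries (vertical axis from 0), in map order, deprived libraries left of replete ones. Replete library 2 (blue squares) is the highest library for ATPase8, ATPase6, CoIII, ND3, ND4L, ND6, Cyt-b and ND1. It is the lowest replete library for ND2, CoI, ND5 (narrowly), ND4, lrRNA and srRNA.

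Replete libraries varied more among themselves than deprived ones in these transcripts. Over the 13 protein genes the coefficient of variation across 3 libraries had a median of 8.24% in deprived and 17.3% in replete heads, and ran from 1.5% to 15.5% in deprived and from 2.72% to 36.1% in replete heads. Replete library 2 was often the one apart. Relative to the mean of replete libraries 1 and 3, its level was 1.77 times for mt:ATPase8, 1.59 times for mt:ND6 and for mt:ND1, 1.47 times for mt:ND3 and 1.40 times for mt:CoIII. It was 0.725 times that mean for mt:ND2, 0.716 times for mt:srRNA and 0.760 times for mt:ND4. Along the map the protein and ribosomal RNA genes fell into runs, which were drawn from these same values. From mt:CoII to mt:ND3 and from mt:ND4L to mt:ND1 every protein gene was above 1 times that mean (1.01 to 1.77 and 1.09 to 1.59), and both runs hold plus-strand genes, the second also minus-strand ones. mt:ND2 and mt:CoI before the first run, mt:ND5 and mt:ND4 between the runs and both ribosomal RNAs after the second were below it (0.716 to 0.976). The tested transfer RNA genes inside the first run, at low counts, were also below it. They were at 0.680 times for mt:tRNA:Lys-CTT, 0.183 times for mt:tRNA:Asp-GTC and 0.849 times for mt:tRNA:Gly-TCC. For mt:ATPase8, mt:ND6, mt:ND1, mt:ND3 and mt:CoIII the ratios of replete library 1 to replete library 3 were 0.831 to 1.03. These 5 genes were named for the distance of library 2, so closer values in libraries 1 and 3 are partly built in.

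Composition within the mitochondrial transcripts was examined as the share of protein gene counts on each gene, which does not depend on the total mitochondrial share. Complex IV genes made up 66.5%, 65.5% and 67.9% of these counts in deprived libraries and 66.3%, 65.6% and 66.3% in replete libraries. Complex I genes made up 21.5%, 22.6% and 20.6% in deprived and 21.2%, 21.9% and 21.1% in replete libraries, so both complexes overlapped between diets. The share of mt:Cyt-b was very even within each diet, at 7.81%, 7.86% and 7.78% in deprived libraries and at 8.15%, 8.09% and 8.16% in replete libraries. The same direction without overlap was seen for mt:CoII (3.86 ± 0.111% in deprived, 4.29 ± 0.206% in replete), mt:ATPase6 (3.92 ± 0.2% in deprived, 4.30 ± 0.0499% in replete), mt:ND3, mt:ND4L and mt:ND6 (SD, n = 3 each). For each of these 6 genes the exact permutation test gave its smallest p of 0.1 (BH-adjusted over 13 genes, p = 0.217). The 13 shares are parts of 1 fixed total in each library, so they are not independent, and lower shares go with higher ones elsewhere. Mean shares were higher in deprived libraries for mt:ND5, mt:CoI and mt:ATPase8, all with overlap. For mt:ND5 they were 9.16 ± 0.383% in deprived and 8.48 ± 0.582% in replete libraries (SD, n = 3 each, exact permutation p = 0.2). The share of mt:ND3 was 0.0778%, 0.0646% and 0.0689% in deprived libraries and 0.103%, 0.132% and 0.0959% in replete libraries. Both abundant oxidase transcripts overlapped, at 35.2 ± 1.09% in deprived and 34.2 ± 4.2% in replete libraries for mt:CoI and at 27.5 ± 0.257% in deprived and 27.6 ± 3.99% in replete libraries for mt:CoIII (SD, n = 3 each).

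By strand, 9 protein genes are on the plus strand and 4 on the minus strand. Minus-strand counts per plus-strand count were 0.263, 0.283 and 0.25 in deprived libraries and 0.258, 0.270 and 0.256 in replete libraries. The groups overlapped and the means were 0.265 ± 0.0168 in deprived and 0.261 ± 0.0076 in replete libraries (SD, n = 3 each; exact permutation p = 0.8). The strand of a gene comes from the annotation, and whether counting used strand is not given.

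Transfer RNA genes carried few reads. All 22 together had 590 to 801 counts in deprived libraries and 499 to 565 in replete libraries, beside 1539418 to 1691098 counts on all mitochondrial genes in deprived and 1328124 to 1494529 in replete libraries. Counts were found in all 6 libraries for 13 of the 22. No count fell on mt:tRNA:Glu-TTC, which at these depths allows up to 3 counts per library, or 0.124 to 0.191 CPM, and this limit covers counting error only. The highest was mt:tRNA:Tyr-GTA (FBgn0013710), the tyrosine transfer RNA, at 14.7, 11.5 and 9.90 CPM in deprived and 13.2, 11.3 and 13.8 CPM in replete libraries. Those groups overlapped, with a log2 fold change of -0.09 ± 0.19 (SE; edgeR quasi-likelihood, BH-adjusted p = 0.999). The remaining 21 were at mean levels of 0 to 3.88 CPM, and of the 10 of them that were tested 5 had negative and 5 positive log2 fold changes.

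Among the 10 tested of those low transfer RNA genes, 2 did not overlap between diets and were named after their values were seen. Both were lower in deprived libraries, which is 20% of the 10, beside 5.02% of all tested genes. The untested mt:tRNA:Ser-TGA was apart the other way, with 2, 4 and 1 counts in deprived libraries and 0 in each replete library. The alanine transfer RNA gene mt:tRNA:Ala-TGC, which begins 21 bases beyond mt:ND3 on the same strand, had 17, 24 and 32 counts in deprived libraries and 35, 56 and 38 in replete libraries. On the CPM scale it was at 0.743, 1.10 and 1.34 in deprived and at 2.17, 3.16 and 2.34 in replete libraries, a log2 fold change of -1.27 ± 0.43 (SE; edgeR quasi-likelihood, BH-adjusted p = 0.634). The methionine transfer RNA gene mt:tRNA:Met-CAT had 8, 8 and 16 counts in deprived libraries and 21, 13 and 18 in replete libraries, a log2 fold change of -1.17 ± 0.60 (SE; edgeR quasi-likelihood, BH-adjusted p = 0.988). On the CPM scale the methionine gene was at 0.350, 0.366 and 0.669 in deprived and at 1.30, 0.734 and 1.11 in replete libraries, apart by a narrow margin. Counts this low leave wide intervals, from -2.21 to -0.32 for the alanine gene and from -2.46 to 0.13 for the methionine gene.

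The nuclear partners of these genes were set beside them. Across the 4 complexes, 83 nuclear genes were listed and none of the 66 tested passed (edgeR quasi-likelihood). At an unadjusted p under 0.05, 2 were lower and 0 higher, beside 2.41% and 2.72% of all tested genes. Log2 fold changes were negative for 31 of 35 genes of complex I, 9 of 10 of III, 9 of 9 of IV and 12 of 12 of V. Over all tested genes 52% were negative. In that order 5, 1, 1 and 1 genes lay wholly lower in deprived libraries, beside 5.02% of all tested genes, and 0 wholly higher, beside 5.86%. Mitochondrial protein gene counts per nuclear subunit count were 4.38, 4.23 and 4.4 in deprived libraries and 4.33, 4.44 and 4.13 in replete libraries, with means of 4.34 ± 0.0969 in deprived and 4.30 ± 0.161 in replete libraries (SD, n = 3 each; exact permutation p = 0.7). The groups overlapped, and all 6 libraries lay between 4.13 and 4.44. Weighting genes equally instead, the mean log2 CPM of mitochondrial protein genes over that of the nuclear genes was lower in deprived heads by a difference of -0.13 (exact permutation p = 0.1), which turns the direction.

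Complex by complex, the median log2 fold change of nuclear subunits was -0.11 over 35 tested genes of complex I, -0.10 over 10 of complex III, -0.17 over 9 of complex IV and -0.17 over 12 of complex V. Over mitochondrial genes it was -0.27 for the 7 of complex I, -0.20 for the 1 of complex III, -0.15 for the 3 of complex IV and -0.10 for the 2 of complex V, beside -0.01 over all tested genes. None was called. The members with the smallest p of their complex were ND-23 at 54.0 ± 2.49 CPM in deprived heads and 65.3 ± 3.94 CPM in replete heads, UQCR-Q at 93.8 ± 5.35 and 116 ± 24.3 CPM, COX6B at 217 ± 15.7 and 248 ± 25.2 CPM and ATPsynB at 142 ± 10.2 and 166 ± 19.6 CPM, deprived before replete (SD, n = 3 each).

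**Figure D5:**
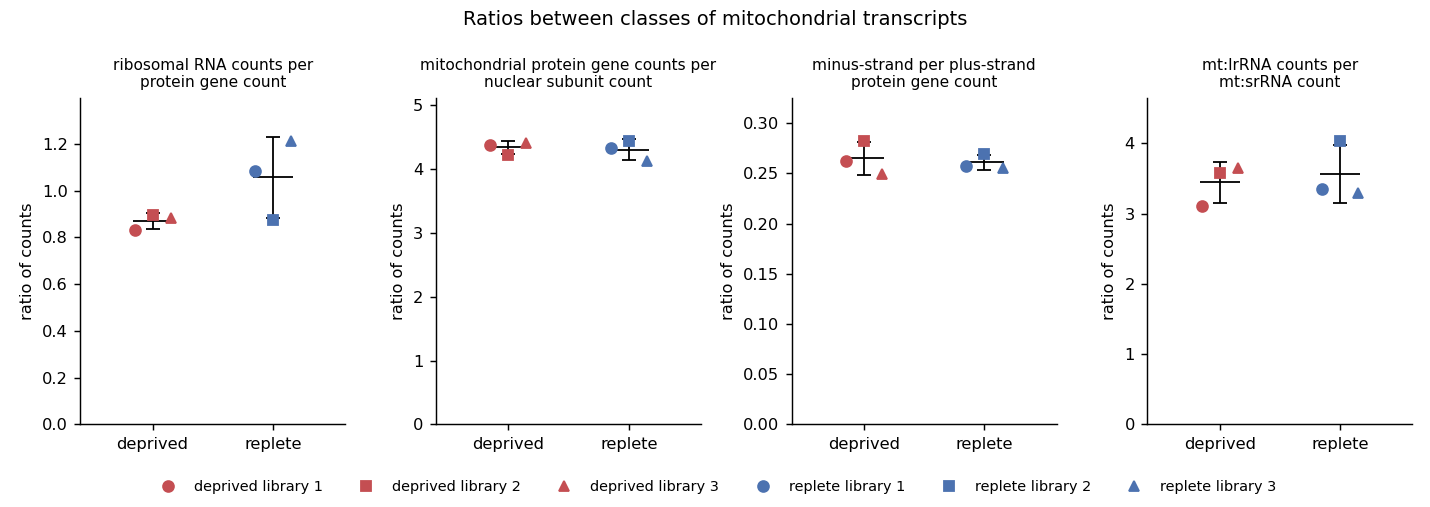
Ratios of counts in each library (vertical axes from 0), deprived libraries left of replete ones: ribosomal RNA per protein gene count, mitochondrial per nuclear subunit count, minus-strand per plus-strand count, and mt:lrRNA per mt:srRNA. Points are libraries and black bars the mean and SD of 3; all 4 ratios overlap between diets, and replete library 2 is the lowest replete library in the first panel and the highest in the others.

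Genes that copy, transcribe and process the mitochondrial genome came from the nucleus as well. Of 12 listed genes for its replication and transcription, 9 were tested and none passed (edgeR quasi-likelihood, 0 at an unadjusted p under 0.05). The mitochondrial RNA polymerase gene PolrMT was at 37.5 ± 2.09 CPM in deprived heads and 33.2 ± 3.46 CPM in replete heads (SD, n = 3 each), with a log2 fold change of 0.18. The termination factor genes mTTF and mTerf5 had log2 fold changes of -0.33 and 0.48. Of 11 listed genes for processing and stability of mitochondrial RNA, 9 were tested and RNaseZ alone was called, beside 0.294% of all tested genes called higher. At an unadjusted p under 0.05, 2 of the 9 were higher and 0 lower, beside 2.72% and 2.41% of all tested genes. Wholly higher in deprived libraries were 2 and wholly lower 1, beside 5.86% and 5.02%. RNaseZ encodes the endonuclease that cuts transfer RNA precursors at their 3' ends, in flies both in the nucleus and in mitochondria. It was at 29.2, 26.4 and 30.6 CPM in deprived libraries and at 11.9, 8.47 and 9.11 CPM in replete libraries. All deprived values lay well above all replete ones, with a log2 fold change of 1.55 ± 0.17 (SE; edgeR quasi-likelihood, BH-adjusted p = 0.000905). Of 72 listed mitochondrial ribosomal protein genes 70 were tested and none passed. At an unadjusted p under 0.05, 1 was lower and 1 higher, beside 2.41% and 2.72% of all tested genes. The median log2 fold change was -0.07, with 41 negative and 29 positive, beside 52% negative over all tested genes.

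Markers of other tissues were summed because head samples can differ in their make-up. Of 21 muscle markers 20 were tested, and 18 had negative log2 fold changes with a median of -0.21, beside 52% negative over all tested genes. At an unadjusted p under 0.05, 4 were lower, beside 2.41% of all tested genes, and none passed over all genes. Every deprived library lay below every replete library for 2 of the 20, beside 5.02% of all tested genes. The summed muscle level was 8557 to 11984 CPM in deprived and 10170 to 15014 CPM in replete libraries, which overlapped, and none of the markers was at 0 in all libraries. Of 8 fat body markers 6 had positive and 2 negative log2 fold changes, with a median of 0.44. At an unadjusted p under 0.05, 3 were higher, beside 2.72% of all tested genes. Only 1 was called (Lsp2), beside 0.294% of all tested genes called higher. The storage protein gene Lsp2 rose, at 1083 ± 152 CPM in deprived heads and 641 ± 97.1 CPM in replete heads (SD, n = 3 each; log2 fold change 0.76, edgeR quasi-likelihood, BH-adjusted p = 0.0373). The summed fat body level overlapped, at 114155 to 142866 CPM in deprived and 114723 to 133449 CPM in replete libraries. Of the 12 photoreceptor markers, trpl and Arr2 were called lower (log2 fold changes -1.18 and -0.88), beside 0.0367% of all tested genes (edgeR quasi-likelihood). Called higher were eys and Cpn (1.00 and 1.67), beside 0.294%. At an unadjusted p under 0.05, 5 of the 12 were lower and 3 higher, beside 2.41% and 2.72% of all tested genes. Wholly lower in deprived libraries were 4 and wholly higher 3, beside 5.02% and 5.86%. The median of 0.07 over the list thus joined changes in both directions. Neuron markers were 1 negative and 6 positive, and 6 glia markers summed to 1824 to 2000 CPM in deprived and 1769 to 2204 CPM in replete libraries. Nuclear ribosomal RNA took 0.0123%, 0.0109% and 0.0119% of counts in deprived libraries and 0.0220%, 0.0143% and 0.0209% in replete libraries, apart in the same direction as the mitochondrial share. The part of muscle, fat body or photoreceptor content, of RNA preparation and of depth in the mitochondrial differences was not tested.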

How the data were processed

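Total RNA of whole heads was sequenced with standard Illumina library chemistry, per the labels' protocols. The authors deposited 1 file of unnormalized whole-number counts per gene for each library. Tools named in the submitters' processing notes are STAR 2.5.3a, Subread 1.6.2, featureCounts, Trim Galore 0.4.2 and FastQC 0.11.5. The sources used here do not give their settings, the build, the annotation, any selection of polyadenylated RNA, the use of strand or the handling of reads that touch several genes. Symbols, lengths and coordinates come from Ensembl release 115 (BDGP6.54), matched by gene identifier for 17389 of 17509 genes. That annotation holds 38 mt: entries, and the counts 37.

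Counts were filtered with filterByExpr (minimum count 10, minimum total 15), scaled by TMM and tested with edgeR 4.0.16 (quasi-likelihood F test, robust) in R 4.3.3, with BH adjustment over 10896 genes. Standard errors are the log2 fold change over the root of F. CPM uses TMM-scaled library sizes, shares use all counts, and shares and ratios were tested with two-sided exact permutation tests (SciPy 1.17.1). Alternatives were DESeq2 1.42.0, limma-voom (limma 3.58.1), other scalings, no filter, a replicate block and leaving out each library. The named genes were all protein and ribosomal RNA genes, transfer RNA genes averaging 5 CPM or more and, per nuclear list, the called genes or up to 3 with the smallest p. Members and lists were chosen with earlier results of these data known. No pair of replicate libraries was within counting noise (chi-square per degree of freedom 19.4 to 45.4).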

Additional observations from a re-analysis of the deposited data

How the results depend on the processing

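No mitochondrial gene was called in edgeR under other scalings (including library sizes without mitochondrial genes), limma-voom, the replicate block or any fit without 1 library; DESeq2 called 2 lower (mt:ND3 and mt:lrRNA) and edgeR without a filter called 1 (mt:ND3). Over all genes, 32 higher and 4 lower calls became 56 and 24 in DESeq2, and 10 lower without a filter. Leaving out each library gave 18 to 32 higher and 2 to 8 lower; the higher calls were 20 without deprived library 1, 18 without deprived library 3 and 19 without replete library 1, without deprived library 2 or 3 the lower calls were 2, and without replete library 2 they were 8. The replicate block gave 24 and 6 calls. Deviations from the diet mean correlated at -0.08, -0.02 and 0.21 between same-numbered libraries, and 2 of 6 libraries correlated best with their own number. The labels do not say that the numbers pair the samples, and so few correlations cannot decide it. The members' median log2 fold change was -0.20, ran from -0.27 to -0.14 without 1 library, and was -0.085 without a filter, where 36 members entered.

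The log2 ratio of the mitochondrial share stayed between -0.28 and -0.18 in 11 alternatives, the last without mt:lrRNA. Signs turned for differences near 0, and without replete library 2 also for mt:ND1 (log2 fold change -0.21) and mt:CoIII (-0.15). The minus-to-plus strand ratio (0.02) ran from -0.028 to 0.062 without 1 library, and the mitochondrial-to-nuclear ratio (0.01) from -0.017 to 0.036 and to -0.13 with genes weighted equally. Without 1 library, log2 fold changes ran from -0.11 to 0.41 for mt:ATPase8, -0.23 to 0.032 for mt:CoIII, -0.061 to 0.026 for mt:ND5, -0.33 to 0.047 for mt:ND1 and -0.26 to 0.032 for mt:tRNA:Tyr-GTA. Log2 ratios of shares ran from -0.053 to 0.12 for mt:CoI, -0.070 to 0.12 for mt:CoIII, -0.18 to 0.12 for mt:ND4 and -0.16 to 0.13 for mt:ND1. The cause was not tested. With 3 libraries a group no exact test could go below p = 0.1, and the counts of most transfer RNA genes were too low to show any but large differences.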
